A study of Mus musculus with 27 samples.

Results

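Retinoic acid is the active acid form of vitamin A, and 9 mouse genes of its pathway are described here across hearts that lack part or all of the long non-coding RNA gene next to Hand2. The genes were chosen by name as listed members of the pathway, and each had an entry in both deposited tables, so they are 9 of 24025 genes in the bulk table and 9 of 19010 genes in the single-cell table. Aldh1a1 and Aldh1a2 encode retinaldehyde dehydrogenases, Stra6 a membrane receptor for the retinol carrier protein, Crabp1 and Crabp2 cellular retinoic acid binding proteins, Rara, Rarb and Rarg the retinoic acid receptors, and Rxra their dimer partner.

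Retinol reaches cells from the blood on a carrier protein, is oxidised to retinaldehyde and then, by the retinaldehyde dehydrogenases, to retinoic acid. Retinoic acid enters the nucleus and binds receptor heterodimers that sit on response elements in DNA and control transcription of their target genes. In the embryonic heart the pathway is known for its part in setting the posterior limit of the heart field, in outflow tract alignment and in the growth of the ventricular wall, where the epicardium is known as a site of synthesis.

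The study profiled C57BL/6 mice that carried deletions of the lncRNA gene Hand2as, also called Hand2os1. The F allele removed its full length and the D allele its 3′ distal part. Bulk libraries of poly(A) RNA came from E11.5 whole hearts (3 F/+ and 3 F/F), E16.5 ventricles (3 F/+ and 3 F/F) and cardiomyocytes of 8-week-old mice (5 +/+, 2 D/+ and 6 D/D). Single cells came from E11.5 hearts of +/+ and F/F embryos, with 6 hearts per genotype dissociated with trypsin, sorted as living cells with 7-aminoactinomycin D and pooled into 1 library each. The embryonic bulk controls were F/+ and so carried the F deletion on 1 allele, whereas the single-cell control was +/+, and the 8-week controls were +/+ and D/+. The labels do not say that libraries of a group came from separate animals, so p-values measure only the spread between these libraries.

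Bulk values were FPKM (fragments per kilobase of transcript, scaled to the mapped fragments of each library), which are scaled per length and can be compared between genes. The depth of the bulk libraries is unknown, and library pairs of the same group had a Pearson r of log2(FPKM + 1) of 0.947 to 0.992 over 38 pairs. Haemoglobin genes took 10.4 to 29.7% of the summed FPKM at E11.5, 0.651 to 2.42% at E16.5 and at most 0.06% at 8 weeks. All 11 cardiomyocyte markers were found in each bulk group, and their summed level was 12110 to 17440 FPKM at E11.5, 16840 to 20540 at E16.5 and 33290 to 47950 at 8 weeks. The deleted gene, Hand2os1, was listed at 0 in all 6 E11.5 bulk libraries, which leaves those labels unchecked. It was at 0.37 to 1.4 FPKM in F/+ and 0 in F/F ventricles, and at 8 weeks it was at 0 to 13.5 FPKM in +/+, 5.25 to 6.17 in D/+ and 0 to 2.67 in D/D, with 1 library labelled +/+ (replicate 5) at 0. In the single cells it had 1 UMI in the library labelled +/+ and 9 in the library labelled F/F, which goes against those labels. Gapdh was at 0.12 to 5.09 FPKM in the embryonic libraries and 980 to 2529 FPKM at 8 weeks.

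The promoters of 3 members are printed because they differ in sequence features that bear on the pathway. Windows of 300 bases, 250 before and 50 after the annotated start, were read from RefSeq (mouse build GRCm38.p6), where 8 of the 9 members had an entry. Rarb, which is itself known to respond to retinoic acid, carried a direct repeat with 5 bases between its copies, the spacing known as DR5, in the 300 bases at chr14:16575427-16575726 on the minus strand. The capitals mark the copies in that repeat, which ran from base -53 to base -37 relative to the start.
Rarb: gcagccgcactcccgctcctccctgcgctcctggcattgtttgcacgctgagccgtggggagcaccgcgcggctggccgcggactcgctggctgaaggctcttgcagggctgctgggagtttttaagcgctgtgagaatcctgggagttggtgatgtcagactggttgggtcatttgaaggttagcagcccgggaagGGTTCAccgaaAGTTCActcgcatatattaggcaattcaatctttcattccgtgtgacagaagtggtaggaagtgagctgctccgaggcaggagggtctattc
The synthesis genes Aldh1a2 (chr9:71215539-71215838, plus strand) and Aldh1a1 (chr19:20601718-20602017, plus strand) are printed with each CG dinucleotide in capitals. For Aldh1a1 the table lists 2 starts and the second is shown.
Aldh1a2: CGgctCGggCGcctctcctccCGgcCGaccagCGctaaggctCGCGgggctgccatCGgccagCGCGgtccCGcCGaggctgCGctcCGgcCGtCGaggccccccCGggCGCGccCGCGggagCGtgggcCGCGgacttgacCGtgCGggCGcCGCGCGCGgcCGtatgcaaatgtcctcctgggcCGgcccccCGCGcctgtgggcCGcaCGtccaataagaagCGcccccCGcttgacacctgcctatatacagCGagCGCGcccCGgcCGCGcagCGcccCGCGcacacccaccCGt
Aldh1a1: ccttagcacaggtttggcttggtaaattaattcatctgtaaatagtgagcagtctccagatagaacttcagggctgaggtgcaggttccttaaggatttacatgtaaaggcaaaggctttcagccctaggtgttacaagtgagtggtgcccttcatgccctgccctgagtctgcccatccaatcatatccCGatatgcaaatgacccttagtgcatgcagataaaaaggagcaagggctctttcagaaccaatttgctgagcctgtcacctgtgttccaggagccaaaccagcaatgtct
The Aldh1a2 window held 50 CG dinucleotides, the Rarb window 17 and the Aldh1a1 window 1, against a median of 7 over all promoter windows. On both strands, the DR5 repeat was found in 32 of 32851 windows (0.0974%) and in 1 of the 17 windows of the members. Repeats with 1 and 2 bases between, DR1 and DR2, were in 0.222% and 0.268% of all windows and in 0 of the 17. A match is a description of letters and not of a bound site, and the windows cover only the proximal promoter.

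The order of levels changed with stage. At E11.5 Aldh1a2 was among the highest of the 9 genes, with 42.5, 24.1 and 41.3 FPKM in the F/+ hearts (36.0 ± 10.3, SD, n = 3) and 27.6, 36.4 and 29.3 in the F/F hearts (31.1 ± 4.67, n = 3). Rara was at 26.1, 36.4 and 20.5 FPKM in F/+ hearts and at 28.8, 26.7 and 27.6 in F/F hearts. Crabp2, at 18.8, 45.5 and 5.72 FPKM in F/+, and Crabp1, at 14.1, 108 and 21.5, had ranges that overlapped those of both. Rxra was at 17.7, 20.5 and 11.3 FPKM in F/+ and 18.2, 20.9 and 13.7 in F/F. The ranges of Aldh1a2 and Rara overlapped in each genotype. Those of Rara and Rxra did not overlap in either genotype. In F/+ the lowest Rara library (20.50 FPKM) stood only just above the highest Rxra library (20.47 FPKM). Rarg (3.36 to 23.3 FPKM in F/+) and Stra6 (2.04 to 13.9) overlapped Rxra and Rarb. Rarb was at 4.79 to 8.57 FPKM in F/+ and 5.13 to 10.1 in F/F, and Aldh1a1 was at 0.66 to 2.29 in F/+. In E16.5 ventricles Rxra and Rara led, with 39.9 ± 0.555 and 37.7 ± 2.27 FPKM in F/+ and 40.9 ± 1.20 and 38.2 ± 3.48 in F/F (SD, n = 3 each), and their ranges overlapped. Rarg (8.21 ± 1.57 FPKM in F/+), Aldh1a2 (4.92 ± 0.518) and Rarb (2.08 ± 0.22) came next without overlap between neighbours. In 8-week cardiomyocytes Rxra led with 16.8 to 35.7 FPKM over the 13 libraries, and Rarg (3.53 to 21.5), Rara (3.85 to 13.2) and Rarb (2.21 to 6.49) followed with ranges that overlapped.

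**Figure D1:**
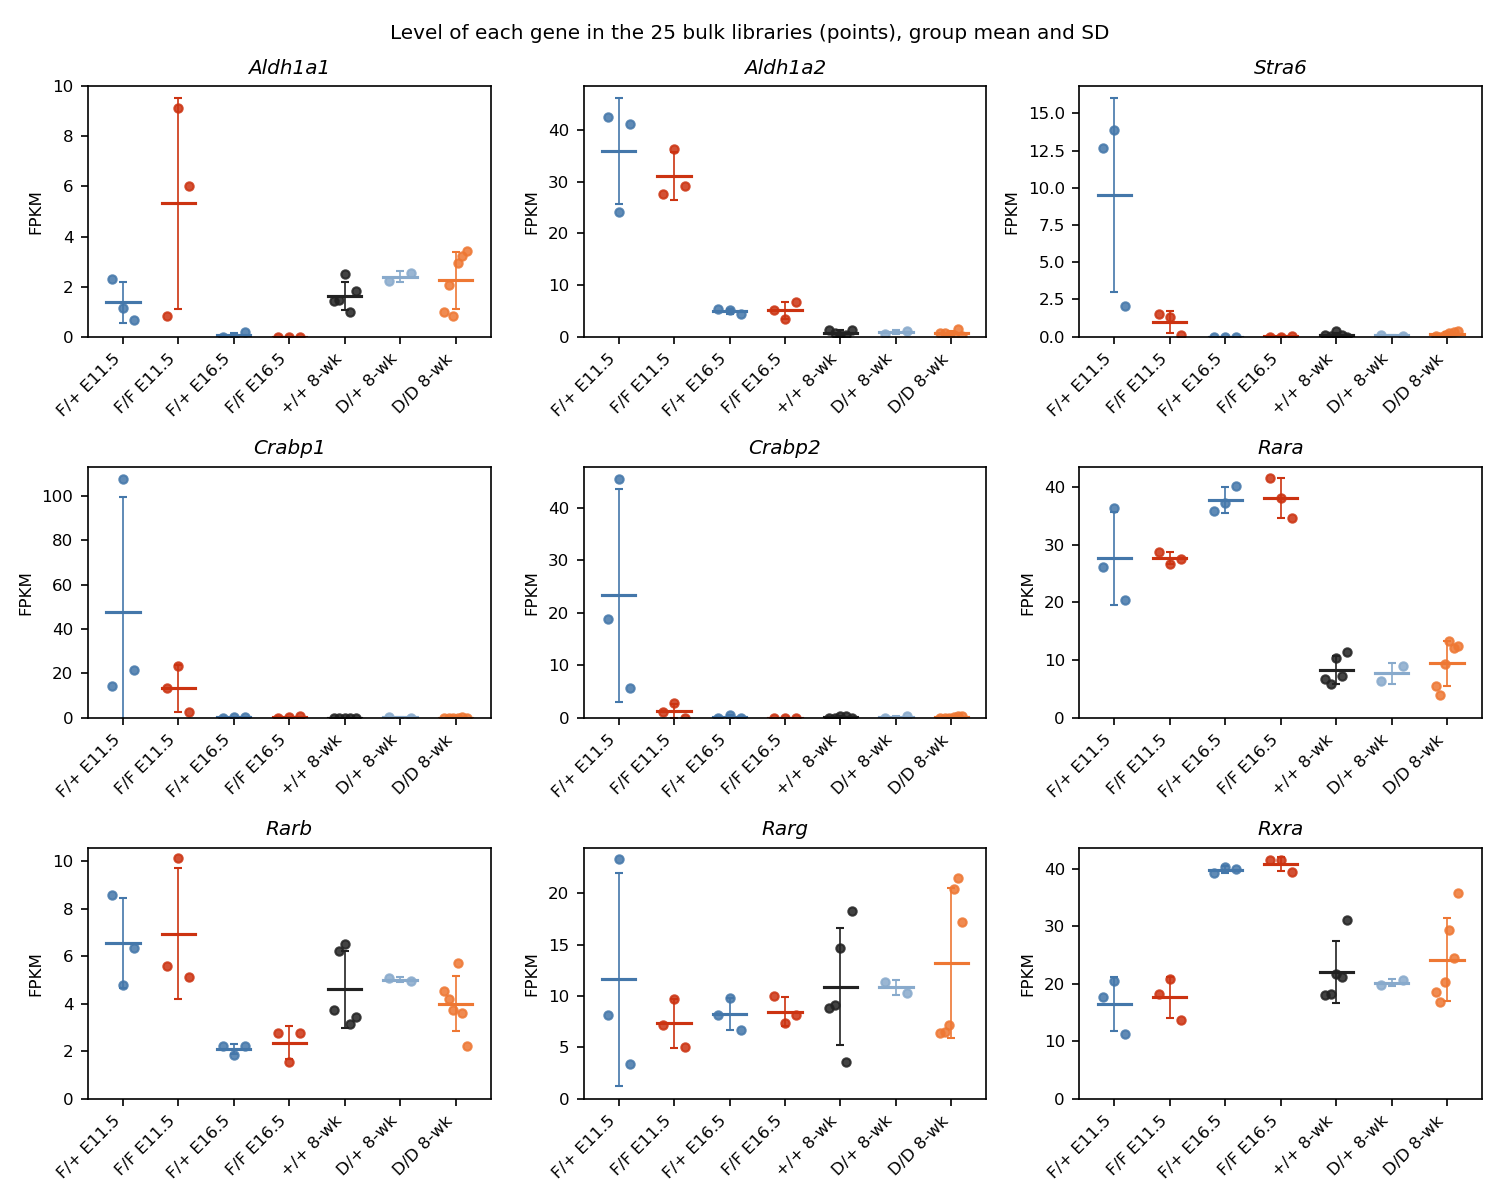
FPKM of each of the 9 genes (vertical axes) in the 25 bulk libraries, grouped by genotype and stage (horizontal axes). Points are libraries, long bars are group means and thin bars are SD. Aldh1a2 sits at 24.1 to 42.5 FPKM at E11.5 and at 3.41 to 6.72 at E16.5, and Crabp2 and Stra6 are lower in every F/F than in every F/+ heart at E11.5.

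Whether loss of the F segment changed the pathway at E11.5 was asked by comparing F/F with F/+ hearts. Crabp2 and Stra6 had the widest separation: both were lower in every F/F heart than in every F/+ heart. The 7 other members had overlapping groups, and limma, a linear model fitted over all genes with adjustment of p-values by Benjamini and Hochberg, called none of the 9. Among all genes tested the call rule (adjusted p under 0.05) was met by 1 of 11491 (0.0087%). Groups that did not overlap, with F/F lower, were seen in 4.31% of all genes. In bulk libraries, fewer cells of a type and less RNA per cell cannot be told apart.

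Crabp2, which is known to carry retinoic acid to its receptors in the nucleus, was at 18.8, 45.5 and 5.72 FPKM in the F/+ hearts and at 1.04, 2.79 and 0 in the F/F hearts. The lowest F/+ library stood above the highest F/F library, and the F/+ libraries spanned a wide range. The log2 difference of FPKM + 1, F/F minus F/+, was -3.22 (SE 0.66), with an unadjusted p of 0.000587 and an adjusted p of 0.519 in limma. The call depended on the fit: with the replicate number as a block the limma adjusted p was 0.0226, and with the spread estimated over all 25 bulk libraries it was 0.000831. Leaving out each library in turn gave -3.94 to -2.55 (adjusted p 0.0986 to 0.999).

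Stra6, through which cells are known to take up retinol, was at 12.7, 13.9 and 2.04 FPKM in F/+ hearts and at 1.51, 1.34 and 0.12 in F/F hearts. F/+ replicate 3 was low for Stra6, Crabp2 and Rarg alike and lay close to the F/F libraries for Stra6. The difference was -2.18 (SE 0.59) on the log2(FPKM + 1) scale, with an unadjusted p of 0.0039 and an adjusted p of 0.999 in limma. In the fit over all 25 libraries the limma adjusted p of Stra6 was 0.00954. Leaving out each library gave -2.93 to -1.78 (adjusted p 0.0967 to 1.0).

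Crabp1, the other cytoplasmic binding protein, was at 14.1, 108 and 21.5 FPKM in F/+ hearts and at 13.3, 23.5 and 2.67 in F/F hearts. One F/+ library, replicate 2, was far above the others, and the groups overlapped (-1.61, SE 0.76, unadjusted p 0.0605). Replicate 2 was also the highest F/+ library for Crabp2, Stra6, Rarg, Rara and Rxra. Rarg was at 8.18, 23.3 and 3.36 FPKM in F/+ and at 7.21, 9.74 and 5.01 in F/F, so that the whole F/F range lay inside the F/+ range. Without F/+ replicate 2 the Crabp1 difference was -0.76.

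Aldh1a1 was at 2.29, 1.14 and 0.66 FPKM in F/+ and at 0.81, 9.15 and 6.01 in F/F, a difference of 1.15 (SE 0.59, unadjusted p 0.0765) with overlapping groups. Markers of hepatocytes, in which Aldh1a1 is known to be abundant, varied between the same libraries: the summed level of the 5-gene list was 160.5, 0.6 and 0.79 FPKM in F/+ and 4.65, 355.2 and 25.9 in F/F. The highest Aldh1a1 value in each genotype was in the library with the highest hepatocyte sum, none of the 5 markers separated the genotypes, and their part in the result was not tested. Aldh1a2 (-0.17, SE 0.24), Rara (0.04, SE 0.22), Rarb (0.05, SE 0.31), Rarg (-0.29, SE 0.52) and Rxra (0.11, SE 0.26) differed by less than 1 SE. The median difference of the 9 members was -0.17, against 0.02 over all genes tested, and 2 of the 9 had an unadjusted p under 0.05, as did 4.37% of all genes.

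Some markers of other lists moved with Crabp2 and Stra6 at E11.5. Of 6 neural crest and neural markers, Sox10 (5.61, 3.77 and 2.36 FPKM in F/+, 0.57, 1.28 and 0.34 in F/F) was lower in F/F without overlap, and the list summed to 11.6 to 17.3 FPKM in F/+ and 7.78 to 11.53 in F/F. Of 6 foregut and lung epithelium markers, only Epcam was lower without overlap (4.96, 4.59 and 1.27 against 0, 0.33 and 0.28). Nkx2-1 and Shh were at 0 in all F/F libraries, but their groups overlapped, so each was also at 0 in an F/+ library. In F/+ replicate 2 and in F/+ replicate 3, 3 of the 6 markers were at 0. The list sums overlapped, at 23.4 to 54.7 FPKM in F/+ and 21.2 to 38.1 in F/F. In the other direction, 3 of 11 cardiomyocyte markers (Tnni3, Myl4 and Myl7) and 5 of 10 endothelial and endocardial markers (Pecam1, Kdr, Tek, Egfl7 and Nfatc1) were higher in F/F without overlap, as were 4.93% of all genes, and the endothelial list summed to 334 to 374 FPKM in F/+ and 402 to 430 in F/F. The part of these lists in the Crabp2 and Stra6 differences was not tested.

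At E16.5 the same genotype comparison was made in ventricles, where 5 members passed the filter of a mean of at least 1 FPKM. Aldh1a2 was at 5.31, 5.11 and 4.33 FPKM in F/+ and 5.25, 3.41 and 6.72 in F/F, Rarb at 2.2, 1.83 and 2.22 against 2.78, 1.54 and 2.76, and Rarg at 8.1, 9.83 and 6.69 against 9.99, 7.33 and 8.12. The groups overlapped for each of these, and 6.78% of all genes had groups that did not. Rara was at 35.8, 37.2 and 40.2 FPKM in F/+ and 41.6, 38.2 and 34.7 in F/F, and Rxra at 39.2, 40.3 and 40 against 41.6, 41.5 and 39.5. The limma differences ran from 0.01 (Rara, SE 0.10) to 0.10 (Rarb, SE 0.20) on the log2(FPKM + 1) scale, and 0 of 5 were called, against 1 of 10699 genes (0.00935%). None of the 5 had an unadjusted p under 0.05, against 2.63% of all genes. Aldh1a1, Crabp1, Crabp2 and Stra6 were at 0 to 0.5 FPKM in each ventricle library and were left out of the test.

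Whether the F effect differed between stages was tested as an interaction over the 12 embryonic libraries, and limma called 0 of the 9 members, against 1 of 11423 genes (0.00875%). Crabp2 and Stra6 passed the filter through the E11.5 hearts and were at 0 to 0.5 FPKM in all ventricles, so their estimates restate the E11.5 difference with the sign turned and test no effect at E16.5. The estimate was 3.02 (SE 0.83, unadjusted p 0.00299, limma adjusted p 0.988) for Crabp2 and 2.20 (SE 0.72, unadjusted p 0.00893, limma adjusted p 0.999) for Stra6. Of the 9 members 2 had an unadjusted p under 0.05, against 4.32% of all genes. Without F/+ E11.5 replicate 3 the Stra6 interaction was 2.94 with a limma adjusted p of 0.0341, and 9 genes in all were then called.

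**Figure D2:**
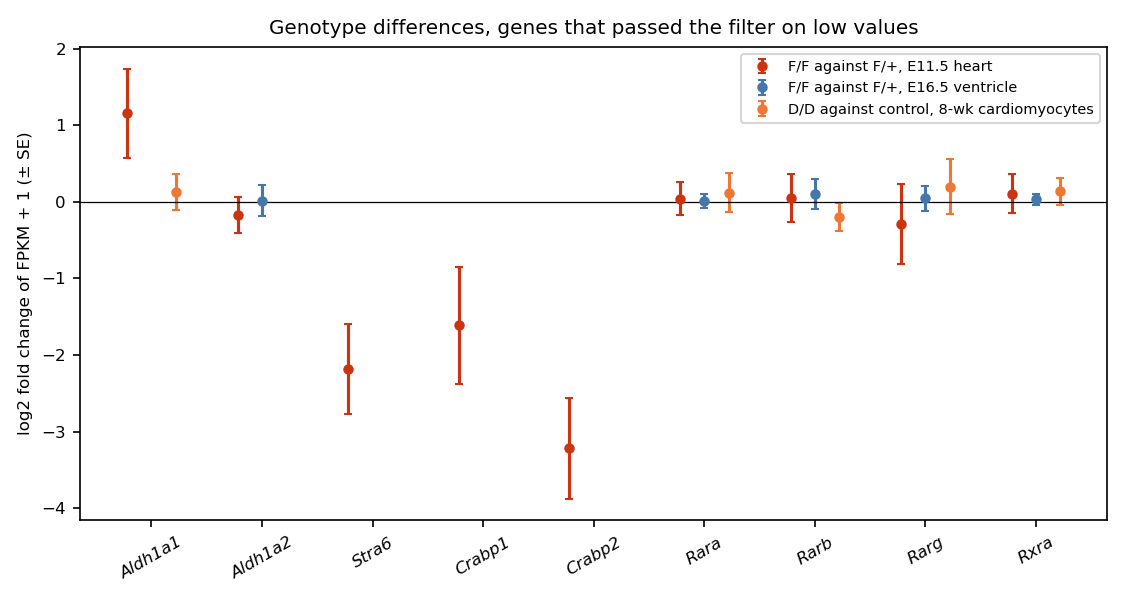
Difference between genotypes on the log2(FPKM + 1) scale (vertical axis, points with SE bars) for the members that passed the filter (horizontal axis) in the 3 bulk settings. Crabp2 (-3.22) and Stra6 (-2.18) at E11.5 lie farthest from 0, and the differences at E16.5 and 8 weeks lie between -0.20 and 0.20.

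The comparison of E16.5 ventricle with E11.5 heart held the larger changes. In F/+ mice Aldh1a2, Rarb, Crabp1, Crabp2 and Stra6 fell and Rara and Rxra rose, so that limma called 7 of 9 members, against 49.5% of 11423 genes tested. In F/F mice 6 of 9 were called, 4 lower and 2 higher, against 50% of all genes. Of all genes, 31.2% were called lower in each genotype, and 18.3% (F/+) and 18.8% (F/F) higher. Aldh1a1, Crabp1, Crabp2 and Stra6 passed the filter only through the E11.5 hearts, so their direction follows from the filter. Their calls test no direction and add nothing to the comparison with all genes. The other members called were Aldh1a2, Rarb, Rara and Rxra, in each genotype. Stage and tissue (whole heart or ventricle) changed together and cannot be told apart.

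Aldh1a2, the main embryonic synthesis enzyme, fell from 24.1 to 42.5 FPKM in E11.5 F/+ hearts to 4.33 to 5.31 in E16.5 F/+ ventricles, by 2.60 on the log2(FPKM + 1) scale (SE 0.24, limma adjusted p 2.62e-06). In F/F it fell from 27.6 to 36.4 FPKM to 3.41 to 6.72, by 2.42 (limma adjusted p 5.06e-06). The stages did not overlap in either genotype. The summed level of the 9 epicardial markers went down with it, from of 245 to 392 FPKM to 66.1 to 82.2 in F/+ and from 284 to 375 to 75.2 to 77.7 in F/F, and their part in the result was not tested. Aldh1a1 was at 0, 0 and 0.17 FPKM in F/+ ventricles (limma adjusted p 0.0817 against E11.5) and was listed at 0 in all 3 F/F ventricles (limma adjusted p 0.00183), so no fold is given for F/F. Aldh1a1 passed the filter only through the E11.5 hearts, so these p-values do not test its direction.

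The binding proteins and the uptake receptor were nearly undetected by E16.5. They passed the filter only through the E11.5 hearts, so their p-values do not test the direction of change. Crabp1 went from 14.1 to 108 FPKM to 0 to 0.09 in F/+ (-4.98, SE 0.69, limma adjusted p 6.78e-05) and from 2.67 to 23.5 to 0 to 0.5 in F/F (-3.18, limma adjusted p 0.002). Crabp2 went from 5.72 to 45.5 FPKM to 0, 0.5 and 0 in F/+ (-4.00, SE 0.59, limma adjusted p 0.000108). In F/F, Crabp2 was at 0 in all 3 ventricles and already at 0 to 2.79 FPKM in the hearts (limma adjusted p 0.181). Stra6 was listed at 0 in all 3 F/+ ventricles (limma adjusted p 0.000258) and at 0, 0 and 0.03 FPKM in F/F ventricles (limma adjusted p 0.162). The 6 outflow and second heart field markers summed to 31.4 to 76.1 FPKM at E11.5 and 6.18 to 9.11 in the ventricles, and their part in these differences was not tested.

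The receptors moved in different directions. Rxra rose from 11.3 to 20.5 FPKM to 39.2 to 40.3 in F/+ (1.26, SE 0.19, limma adjusted p 0.00016) and from 13.7 to 20.9 to 39.5 to 41.6 in F/F (1.19, limma adjusted p 0.00027), without overlap in either genotype. Rarb, whose promoter is printed above, fell from 4.79 to 8.57 FPKM to 1.83 to 2.22 in F/+ (-1.27, SE 0.27, limma adjusted p 0.00179) and from 5.13 to 10.1 to 1.54 to 2.78 in F/F (-1.21, limma adjusted p 0.00247). Rara rose by less (0.47, limma adjusted p 0.0360 in F/+ and 0.45, limma adjusted p 0.0449 in F/F). The F/+ stages overlapped for Rara, and the call was lost in 5 of the 6 fits that left out 1 library in F/+ (adjusted p up to 0.129) and in 5 of 6 in F/F (up to 0.144). Rarg differed by -0.12 (SE 0.45, limma adjusted p 0.842) in F/+ and 0.22 (limma adjusted p 0.714) in F/F.

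**Figure D3:**
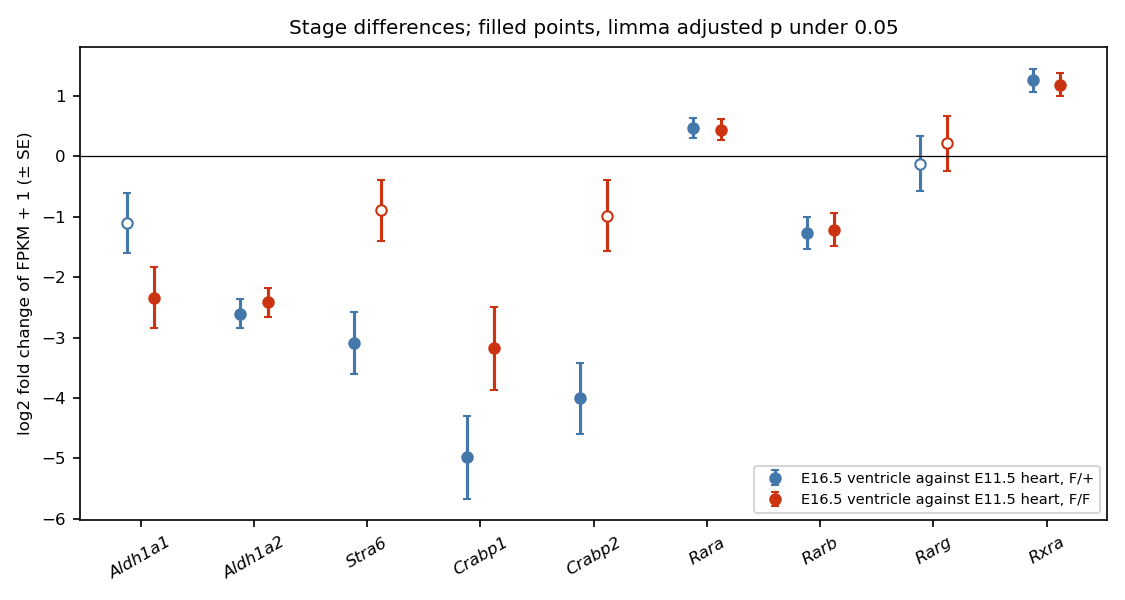
E16.5 ventricle minus E11.5 heart on the log2(FPKM + 1) scale (vertical axis, points with SE bars) for each member (horizontal axis), in F/+ and F/F mice. Filled points have a limma adjusted p under 0.05. For Aldh1a1, Crabp1, Crabp2 and Stra6, which passed the filter only through the E11.5 hearts, the fill tests no direction. Rxra and Rara lie above 0 and Aldh1a2, Rarb and Crabp1 below it in both genotypes, while Crabp2 and Stra6 are filled in F/+ and open in F/F.

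Cardiomyocytes of 8-week-old +/+ mice were set beside E16.5 F/+ ventricles in the fit over all 25 libraries. Rara fell (-2.09, SE 0.28, limma adjusted p 1.04e-06), from 35.8 to 40.2 FPKM to 5.8 to 11.4, and Aldh1a2 fell (-1.77, SE 0.25, limma adjusted p 2.17e-06), to 0.33 to 1.25 FPKM. Rarb rose (0.82, SE 0.25, limma adjusted p 0.00651), from 1.83 to 2.22 FPKM to 3.13 to 6.49, and Aldh1a1 rose from at most 0.17 to 0.99 to 2.49 FPKM (1.30, SE 0.39, limma adjusted p 0.00549). Aldh1a1 was near 0 in the ventricles and passed the filter through the other groups, so only a rise could be called for it. Rxra was lower (-0.85, SE 0.22, limma adjusted p 0.00164), but with median-ratio scaling of the libraries it was -0.38 with a limma adjusted p of 0.133. Of the 9 members in the fit 5 were called, Aldh1a1 among them, against 67.9% of 11437 genes. Crabp1, Crabp2 and Stra6, which are among the 9 but not among those called, were at 0 to 0.5 FPKM in both groups. They passed the filter only through the E11.5 hearts of the fit and test nothing here. Age, cell purification and genotype changed together and cannot be told apart. The lists moved with the purification as well: the 10 mesenchymal markers summed to 1223 to 1384 FPKM in the F/+ ventricles and 39.1 to 67.7 in the +/+ cardiomyocytes, and the 9 epicardial markers to 66.1 to 82.2 and 3.28 to 13.6. Their part in the result was not tested.

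Loss of the distal segment was tested in 8-week cardiomyocytes, with 6 D/D libraries against 7 controls. No member separated the groups (0.0293% of all genes did), and limma called 0 of 5 tested members and 0 of 10249 genes (0.0%, 175 genes or 1.71% at an unadjusted p under 0.05). Rara was at 3.85, 10.7 and 13.2 FPKM (lowest, median and highest) in D/D, at 6.73, 5.8, 10.3, 7.29 and 11.4 in +/+ and at 6.37 and 8.99 in D/+. Rarg was at 6.38, 12.2 and 21.5 FPKM in D/D, at 8.86, 9.09, 14.7, 3.53 and 18.3 in +/+ and at 11.4 and 10.3 in D/+. Rxra was at 16.8, 22.3 and 35.7 FPKM in D/D, 18.1, 18.1, 21.6, 21.2 and 31.1 in +/+ and 19.7 and 20.6 in D/+. The genotypes overlapped over most of their ranges. The log2(FPKM + 1) differences were 0.12 (SE 0.25) for Rara, 0.20 (SE 0.36) for Rarg, 0.13 (SE 0.18) for Rxra, -0.20 (SE 0.19) for Rarb and 0.13 (SE 0.23) for Aldh1a1. Against +/+ alone they were 0.09, 0.24, 0.11, -0.15 and 0.24, with 0 of 5 called (0.0% of all genes).

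The 13 libraries of 8-week cardiomyocytes were also split into 2 sets, chosen as the split of 5 against 8 that kept the values of the most genes apart. The first set held 5 libraries (replicates 1 and 2 of +/+ and of D/D, and replicate 1 of D/+) and the second the 8 others. Rara was at 3.85 to 6.73 FPKM in the first set and 7.29 to 13.2 in the second, and Rxra at 16.8 to 19.7 and 20.2 to 35.7, with no overlap for either gene, as for 862 of 10249 genes. The split was chosen on these same values, so the separation is a description. Rarg (6.38 to 11.4 and 3.53 to 21.5) and Rarb (3.75 to 6.2 and 2.21 to 6.49) overlapped between the sets. Across the same 8-week libraries the 10 endothelial and endocardial markers summed to 111 to 508 FPKM. Within the first set the D/D difference was -0.38 for Rara, -0.53 for Rarg, -0.08 for Rxra and -0.13 for Aldh1a1, and within the second it was 0.29, 0.55, 0.20 and 0.24. With 2 D/D libraries in the first set and 4 in the second, these values were not tested against each other. With a term for the sets the differences were 0.04, 0.15, 0.09 and 0.10. Libraries +/+ replicate 5 and D/D replicate 6 stood apart from the rest, and without them (an alternative chosen after seeing the data) the differences were 0.10 for Rara, 0.22 for Rarg, 0.11 for Rxra and 0.02 for Aldh1a1.

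Other genes of the pathway came from a list of 70, covering retinol supply, synthesis, breakdown, transport, receptors, cofactors and known retinoic acid targets, with the 9 members left out. At E11.5, 50 of the 70 were tested and limma called none, while 7 of 50 (4.37% of all genes) had an unadjusted p under 0.05 (among them Hoxa2, Hoxa3, Hoxa4, Hoxa5, Hoxb4 and Hoxb5). Hoxa5, a homeobox gene known as a retinoic acid target, was at 27.9, 15 and 7.53 FPKM in F/+ hearts and 0.54, 1.80 and 2.04 in F/F hearts (-2.74, SE 0.44, unadjusted p 9.0e-05, limma adjusted p 0.259). Hoxa4 (-2.23, limma adjusted p 0.417), Hoxa3 (-2.02, 0.417) and Hoxa2 (-1.93, 0.946) were also lower in every F/F heart than in every F/+ heart. Rdh10, which makes retinaldehyde from retinol, did not overlap either (5.94, 2.21 and 2.01 FPKM in F/+, 0.29, 1.82 and 1.90 in F/F). Hoxb4 (-1.06) and Hoxb5 (-1.88) had overlapping groups. In all, 6 of the 50 were lower and 1, Igf2 (0.19), higher without overlap, against 4.31% and 4.93% of all genes. The 20 tested targets had a median difference of -0.33, against 0.02 over all genes.

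At E16.5 0 of 40 listed genes were called, and at 8 weeks 0 of 41 (D/D against control; 1 of 41, Rbp7, had an unadjusted p under 0.05). Between the embryonic stages 33 of 47 were called in F/+ (10 higher and 23 lower, 70.2%, against 49.5% of all genes), of which the targets were 2 higher and 15 lower of 18 tested. In F/F, 24 of 47 were called (8 higher and 16 lower, 51.1%, against 50% of all genes), with 1 target higher and 9 lower. Genes near 0 FPKM at 1 stage passed the filter only through the other, so the direction of their change follows from the filter. The called genes and targets were not sorted by this, and the shares of the list and of all genes include such genes. The carrier gene Fabp5, whose protein can deliver retinoic acid to another nuclear receptor, fell from a mean of 46.2 to 5.42 FPKM in F/+ (-3.14) and by 3.09 on the log2 scale in F/F, while its relative Fabp4 rose (3.05 in F/+ and 3.62 in F/F). Nr2f1, an orphan receptor gene induced by retinoic acid, fell from 15.2 to 1.29 FPKM (-2.80 in F/+, -2.64 in F/F), and Pdgfra fell by 2.38 and 2.05. Rdh11 fell from 9.88 to 1.17 FPKM in F/+ (-2.33) and by 2.04 in F/F, and Rdh14 rose from 3.86 to 14.2 in F/+ (2.05). Ttr fell from 3.0, 42.4 and 1.48 FPKM to 0 in F/F, and passed the filter only through the E11.5 hearts. Its highest value was in F/F replicate 2, which had the highest summed level of hepatocyte markers (355.2 FPKM), and their part in this fall was not tested. From E16.5 ventricle to 8-week cardiomyocytes 20 of 48 were called (41.7%, against 67.9% of all genes), and the receptor gene Rxrg rose from 0.127 to 44.9 FPKM (5.34), Fabp4 by 4.78, Egr1 by 5.58 and Rbp7 by 3.09, while Igf2 fell from 1397 to 15.7 FPKM (-6.43) and Tcf21 fell by 3.09. Rxrg and Rbp7 were near 0 in the F/+ ventricles (means of 0.127 and 0.193 FPKM), so only a rise could be called for them.

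Over the 12 embryonic libraries, the genes whose levels followed each member most closely among 7633 candidates were named by Pearson r of log2(FPKM + 1). For Aldh1a2 they were Plin2 (0.991), G6pdx (0.991) and Rab3il1 (0.99), for Rxra Hadh (0.992), Ivns1abp (0.988) and Vash1 (0.984), and for Rara Scaf1 (0.98), Fbrsl1 (0.968) and Cand2 (0.967). For Crabp1 they were Cd248 (0.988), Tcf3 (0.987) and Cbx2 (0.973), for Crabp2 Efna4 (0.946), Lppr3 (0.943) and Mex3b (0.939), and for Rarg Lrfn4 (0.944), Ethe1 (0.905) and Midn (0.889). The libraries share their stages, so these values describe the stage contrast as much as the differences between libraries.

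Single cells of E11.5 hearts showed where the members were expressed. The deposited table held 2563 cell barcodes labelled +/+ and 3469 labelled F/F, with 38302756 and 51432292 unique molecular identifiers (UMIs) and medians of 13369 and 13403 per barcode, and 18 barcode sequences occurred in both libraries. After filters 5871 cells (2503 and 3368) fell into 18 clusters, of which 16 were named from marker genes as a "like" class and 2, clusters 9 and 11, stayed unnamed because markers of several classes led in them. Levels are CPM, the UMIs of a gene scaled to 1000000 UMIs of its class, which are not scaled per length and are compared here only within a gene. There was 1 library per genotype, so no test between genotypes was possible. Intervals are 95% exact intervals that cover counting error only.

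The UMIs of both synthesis members lay mainly in 1 cluster. The epicardial-like cluster (397 cells, in which 9 of 9 epicardial markers led) held 94.1% (interval 92.6 to 95.4) of all 1125 Aldh1a2 UMIs and 92.9% (90.3 to 95.1) of all 481 Aldh1a1 UMIs. Aldh1a2 stood there at 169 CPM and in no other cluster above 5.25, and Aldh1a1 at 71.3 CPM and in no other cluster above 1.14. In erythroid-like cells, taken as a measure of free RNA, the levels were 0.497 and 0.186 CPM. Both genes had a UMI in 64 of 148 epicardial-like cells labelled +/+ (43.2%) and in 112 of 249 labelled F/F (45%). The 13 hepatocyte-like cells, all in the library labelled +/+, had 0 Aldh1a1 UMIs, where 3 UMIs would have been 9.37 CPM. Aldh1a3, another retinaldehyde dehydrogenase gene on the pathway list, had 825 UMIs, and the cluster where it was highest (megakaryocyte-like cluster 14, at 69.8 CPM) held 19.8% of them.

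The receptors had different distributions. Rarg was found mainly in mesenchymal-like cells, which held 80.0% (76.4 to 83.2) of its 564 UMIs at 32.8 CPM, with 15.1 CPM in endothelial-like cluster 7, 1.44 in epicardial-like and 0.479 in cardiomyocyte-like cells. Rarb was highest in unnamed cluster 9 (19.5 CPM), then in mesenchymal-like (12.2), cardiomyocyte-like (7.87) and epicardial-like cells (7.66), and at 0.57 CPM in endothelial-like cluster 7. Rara was at 42.1 CPM in endothelial and endocardial-like, 33.5 in cluster 9, 29.2 in mesenchymal-like, 23.8 in cardiomyocyte-like and 17.9 in epicardial-like cells, against 1.12 in erythroid-like cells. Rxra varied least among the larger non-erythroid classes, from 6.85 CPM in endothelial-like to 11.8 in cardiomyocyte-like cells, with 0.559 in erythroid-like cells. Cardiomyocyte-like cells held 41.0% of the Rxra UMIs and 1.6% of the Rarg UMIs.

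The binding proteins were highest in the unnamed cluster 11, in which 4 of 6 outflow and second heart field markers, 5 of 7 atrial and sinus markers and 4 of 10 mesenchymal markers led. Crabp1 reached 217 CPM there, 112 in cluster 9, where 10 of 11 cardiomyocyte and 5 of 6 outflow markers led, 93.4 in mesenchymal-like cluster 5 and 21.0 in mesenchymal-like cluster 3. It was at 6.28 CPM in cardiomyocyte-like and 1.43 in erythroid-like cells. Crabp2 was at 45.1 CPM in cluster 11, 15.1 in endothelial-like cluster 7, 11.7 in cluster 9 and 10.0 in mesenchymal-like cluster 5. Stra6 had 35 UMIs in all, 21 of them in mesenchymal-like cells and 7 in cluster 11. These class levels describe clusters and are no test between them.

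**Figure D4:**
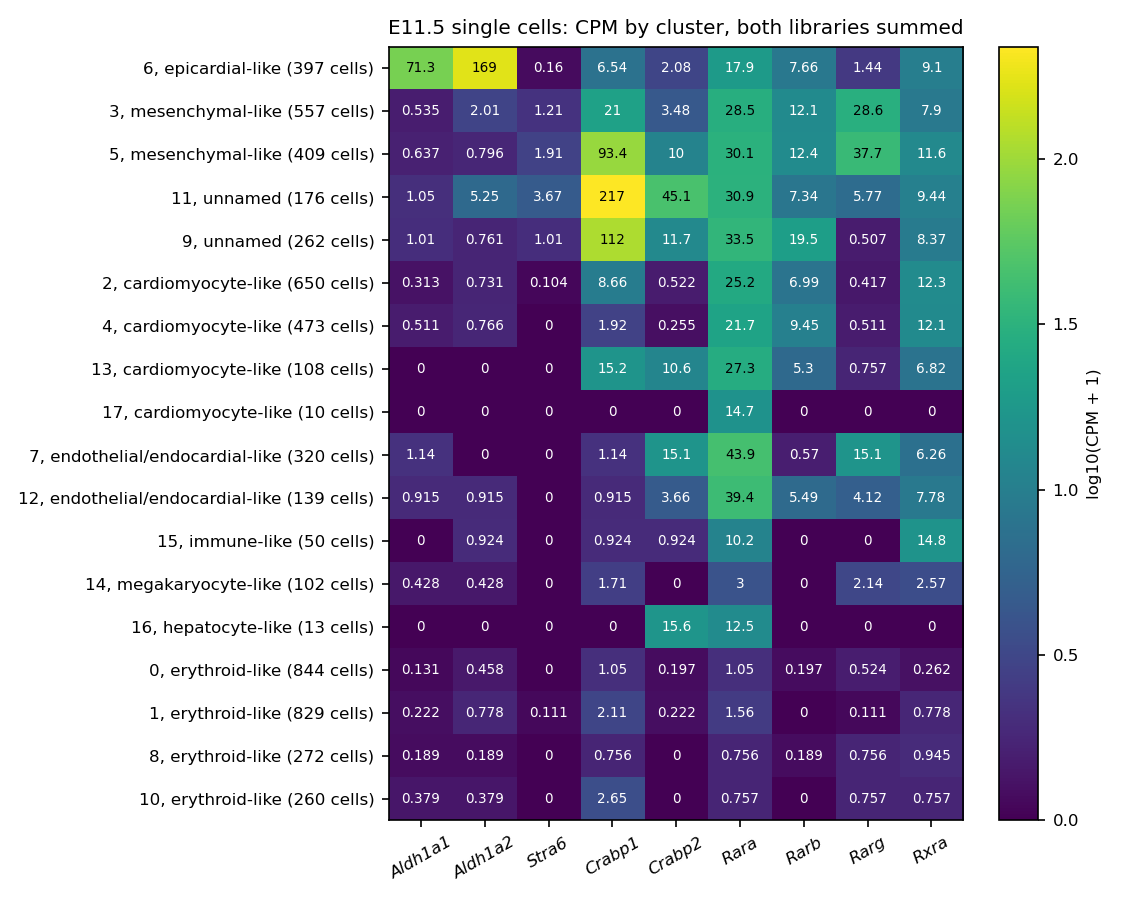
CPM of each member (columns) in each of the 18 clusters of E11.5 heart cells (rows, with cell numbers), both libraries summed; the colour scale is log10(CPM + 1) and the figures printed are CPM. Aldh1a1 and Aldh1a2 are bright in the epicardial-like cluster, Rarg in mesenchymal-like clusters 3 and 5, and Crabp1 in clusters 5, 9 and 11.

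Over the 18 clusters, the genes most like each member among 8420 candidates, by Pearson r of log2(CPM + 10), were Upk1b (0.996), Rspo1 (0.994) and Smpd3 (0.992) for Aldh1a2, and Postn (0.958), Meox1 (0.947) and Twist1 (0.939) for Rarg. For Crabp1 they were Cntfr (0.947), Fzd1 (0.932) and Rgs5 (0.915), for Rara Rilpl1 (0.98), Foxn3 (0.964) and Tnfaip1 (0.96), and for Rxra Myo5a (0.939), Ulk2 (0.937) and Tbc1d16 (0.937). Several of the genes like Aldh1a2 and Rarg were among those that defined the clusters.

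Levels in the 2 single-cell libraries were set side by side for members with at least 20 UMIs in each. In epicardial-like cells Aldh1a2 was at 212 CPM in the library labelled +/+ and 144 CPM in the library labelled F/F, a ratio of 0.677 (interval 0.599 to 0.766). Intervals wholly below 1 were found for 9.84% of 7827 genes in this class, where the median ratio was 0.971 and 0.92% of genes were past 2-fold. Aldh1a1 in the same cells was at 66.6 and 74.1 CPM, a ratio of 1.11 (0.913 to 1.36). With each cell thinned to 5000 UMIs (148 and 242 cells, with 0 and 7 shallower cells left out), Aldh1a2 had a UMI in 58.1% and 45.9% of epicardial-like cells (85.1% and 80.3% unthinned), and Aldh1a1 in 24.3% and 31.4% (48.7% and 55.0% unthinned). In erythroid-like cells, with median depths of 10909 and 11653 UMIs against 14843 and 15716, the unthinned Aldh1a2 shares were 0.418% and 0.962%. Epicardial-like cells made up 5.91% (5.02 to 6.91) of cells labelled +/+ and 7.39% (6.53 to 8.33) of cells labelled F/F. Over all cells Aldh1a2 had a ratio of 0.893 (0.793 to 1.01) and Aldh1a1 of 1.47 (1.21 to 1.78).

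In mesenchymal-like cells all 6 members with enough UMIs had a ratio below 1, and 4 of the 6 intervals lay wholly below 1, as did those of 12.1% of 10041 genes in the class (median ratio 0.977). Rara was at 33.6 CPM in the library labelled +/+ and 25.5 in that labelled F/F (0.760, 0.622 to 0.929), Rarg at 37.4 and 28.9 (0.774, 0.640 to 0.935), Crabp1 at 59.1 and 49.8 (0.843, 0.728 to 0.976) and Crabp2 at 8.04 and 5.13 (0.639, 0.408 to 0.991). The intervals of Rarb (0.857) and Rxra (0.911) spanned 1. Within the 2 mesenchymal-like clusters Crabp1 had ratios of 1.05 (cluster 3) and 0.883 (cluster 5, 0.748 to 1.04), and neither interval lay wholly below 1. Rarg had ratios of 0.823 and 0.754 (0.578 to 0.983 in cluster 5).

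In cluster 11 Crabp1 was at 248 CPM in the library labelled +/+ and 187 in that labelled F/F (0.752, 0.616 to 0.917; 6.33% of 5042 genes had an interval below 1), and Crabp2 at 36.1 and 53.9 (1.5, 0.952 to 2.38, an interval that spanned 1). In cluster 9 the Crabp1 ratio was 0.972 (0.802 to 1.18). In cardiomyocyte-like cells 0 of 4 intervals lay below 1, against 14.3% of genes, with ratios of 0.709 (Crabp1, 0.486 to 1.04), 0.886 (Rara), 0.864 (Rarb) and 1.03 (Rxra). Of the 462 such cells labelled +/+, 221 were in cluster 4 and 203 in cluster 2, and of the 779 labelled F/F, 252 and 447. The Crabp1 ratio depended on the settings: its log2 value was -0.50 as given, 0.41 with each cell thinned and 0.20 with doublets kept, and that of Rxra went from 0.05 to 0.59 with thinning. In endothelial and endocardial-like cells the ratios of Rara (0.846), Rarg (0.738) and Crabp2 (0.816) had intervals that spanned 1, as 0 of 3 lay wholly below it against 8.77% of genes.

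**Figure D5:**
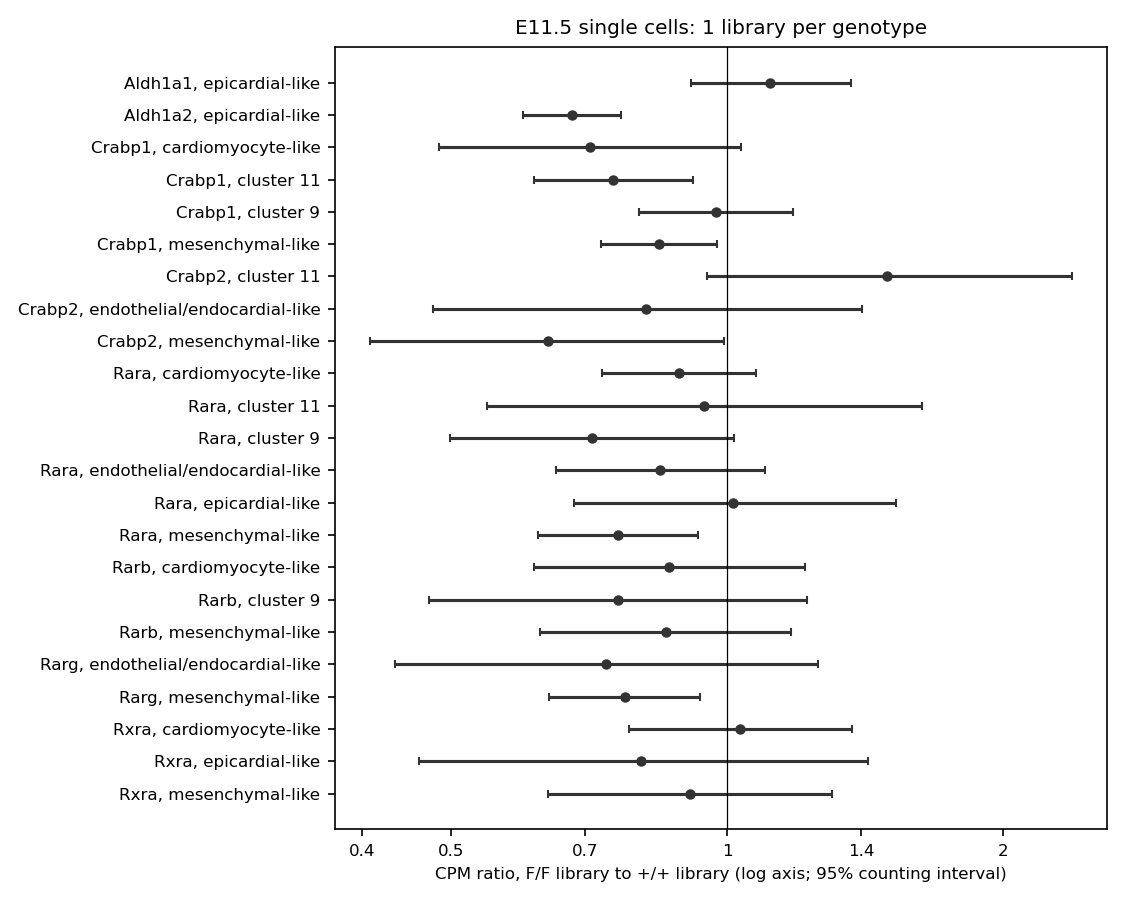
Ratio of CPM in the single-cell library labelled F/F to that labelled +/+ (horizontal log axis, points with 95% counting intervals) for each member and class with at least 20 UMIs in each library (vertical axis). Aldh1a2 in epicardial-like cells lies at 0.677 and the 6 mesenchymal-like ratios lie between 0.639 and 0.911; 1 library per genotype was sequenced, so the intervals hold no spread between embryos.

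Over all cells the ratios were 0.873 (0.787 to 0.970) for Rara, 0.730 (0.617 to 0.864) for Rarg, 0.763 (0.695 to 0.837) for Crabp1, 1.01 for Rxra and 0.917 for Rarb. Of 8 members 3 had an interval wholly below 1 and 1 wholly above, against 17.6% and 12.8% of 12883 genes, and 0 were past 2-fold (0.745% of genes). The bulk and single-cell values of the genes with the widest bulk separation stood as follows. Crabp2, lower in the F/F bulk hearts, had a single-cell ratio of 0.979 (0.782 to 1.23) over all cells. Stra6, also lower in the F/F bulk hearts, had 10 UMIs in the library labelled +/+ and 25 in that labelled F/F (1.88, 0.871 to 4.38). Hoxa5 had 29 and 20 UMIs. The bulk control was F/+ and the single-cell control +/+, and the cells were dissociated and sorted, so the bulk and single-cell contrasts were not the same comparison.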

How the data were processed

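The members, the lists of pathway and marker genes and the tests were chosen with earlier results of these data known. The bulk table held FPKM values deposited by the authors for 25 libraries (poly(A) RNA, stranded kit, per the labels' protocols). The submitters' processing notes name CASAVA, TopHat2 2.0.11 and build mm9; the tool that computed FPKM is not given in the sources used here, and the unit was read from the values. The single-cell table held whole-number UMI counts deposited by the authors, made with Cell Ranger on mm10, per the submitters' processing notes. The 270 repeated symbols (769 of 24525 lines) held identical values on each of their lines and were kept once, and 1 gene that had an empty cell was dropped. 

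Bulk values were tested as log2(FPKM + 1) with limma 3.58.1 (R 4.3.3) on genes whose mean over the libraries of the fit was 1 FPKM or more, with Benjamini-Hochberg adjustment over all of them and a threshold of 0.05. E11.5, E16.5 and 8-week genotype contrasts had their own fits, the stage contrasts and the interaction used the 12 embryonic libraries, and the contrast of 8 weeks with E16.5 used all 25. The pseudocount makes fold changes of low genes smaller than those of FPKM itself. The fits were tested on simulated data.

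Cells with at least 500 genes were kept, 52 and 96 likely doublets were removed by score rank (scrublet's own threshold marked 3 barcodes, 0.0498%), and cells were clustered with scanpy 1.11.5 (Python 3.11.15; 2000 variable genes without the members, 30 components, 15 neighbours, resolution 1). A cluster took the name of the list whose markers led in it (at least 3 markers, 2-fold). Cluster 11 stayed unnamed because another list led in a larger share. Cluster 9 stayed unnamed although its cardiomyocyte share (10 of 11) was above its outflow share (5 of 6). Its 10 top genes held the outflow markers Sema3c and Rspo3. The rule for leaving clusters unnamed was set after the clusters were seen. All 9 members are named. Of the 70 listed pathway genes, those called in a genotype contrast, up to 6 called per stage contrast with the largest change and a mean of at least 5 FPKM, and the 2 highest per class are named, except for a few genes that are not reported here. The Hox genes, Rdh10 and Rbp7 were named after their values were seen. Genes with the most similar pattern were the 3 with the highest Pearson r for members at 5 FPKM or more, or 500 UMIs or more. Alternatives changed the pseudocount, the filter, the scaling, the libraries, the block, the terms of the fit and the single-cell filters.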

Additional observations from a re-analysis of the deposited data

Results flagged for a closer look

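In groups of 4 to 10 libraries the highest or lowest value was compared with the rest by Dixon's 95% critical value, which chance exceeds in about 1 of 20 groups, and 17 groups of member values were tested. Rxra was at 31.12 FPKM in 8-week +/+ replicate 5, and the next highest +/+ library was at 21.64, a gap of 0.728 of the range of the 5 libraries. The same library listed the deleted gene at 0. Crabp1 was at 0.21 FPKM in 8-week D/D replicate 5 and listed at 0 in the 5 other D/D libraries, a value below the filter on low values.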

How the results depend on the processing

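For members in bulk, 342 of 368 log2 differences under an alternative other than leaving out 1 library kept their direction and their side of the threshold, as did 443 of 492 with 1 library left out. In the E11.5 genotype comparison the number of members called went from 0 to 1 (Crabp2) with the replicate block and to 2 (Crabp2 and Stra6) with all 25 libraries in 1 fit, and the number of all genes called from 1 to 2 and 24. Adding the summed level of 4 Y-linked genes as a covariate gave 2, as did leaving out F/+ replicate 3. At E16.5 the genes called went from 1 to 2 with a pseudocount of 0.1, 3 with the Y-linked covariate and 0 to 2 with 1 library left out. In the interaction 1 became 2 with that pseudocount, 3 without the filter and up to 9 with 1 library left out, and members called were 0 to 1 then. At 8 weeks 0 became 1 gene within the first set against either control.

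The E11.5 difference of Rarg was 0.074 with the Y-linked covariate. At E16.5, Rara was 0.000 with upper-quartile scaling, and Aldh1a2 was -0.028 and Rarg -0.207 with the Y-linked covariate. The F/+ stage difference of Rarg was 0.077 with median-ratio and 0.081 with upper-quartile scaling, and Crabp2 at 8 weeks against E16.5 was 0.011 with median-ratio scaling. D/D against control with the replicate block gave Rara -0.103 and Rxra -0.048, and against +/+ Rara -0.003 and Rxra -0.011. Within the first set, D/D against control gave Aldh1a1 -0.126, Rara -0.379, Rarg -0.530 and Rxra -0.075, and against +/+ Rara -0.371, Rarg -0.426 and Rxra -0.035. None of these values was called, and the cause was not tested.

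With 1 library left out, differences that changed sign ranged as follows. At E11.5 they were -0.150 to 0.249 for Rara, -0.222 to 0.233 for Rarb, -0.884 to 0.355 for Rarg and -0.129 to 0.275 for Rxra. At E16.5 they were -0.169 to 0.235 for Aldh1a2, -0.050 to 0.079 for Rara and -0.076 to 0.171 for Rarg. In the interaction they were -0.236 to 0.163 for Rara, -0.130 to 0.324 for Rarb, -0.309 to 0.931 for Rarg and -0.240 to 0.164 for Rxra. The F/+ stage difference of Rarg ran from -0.712 to 0.527, and Crabp2 at 8 weeks against E16.5 from -0.134 to 0.158. D/D against control ran from -0.016 to 0.350 for Rarg, and against +/+ from -0.017 to 0.293 for Rara, -0.067 to 0.455 for Rarg and -0.011 to 0.234 for Rxra.

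Calls changed in the stage comparisons for Aldh1a1 in F/+ (-3.24, limma adjusted p 0.012) and Stra6 in F/F (-2.87, limma adjusted p 0.025) with a pseudocount of 0.1, and for Rara in F/F (limma adjusted p 0.0601 without the filter, 0.0551 with the block, which left 5 members called). Apart from this and Crabp2 at E11.5, the replicate block changed no member's call. Same-numbered F/+ and F/F libraries had deviations from their group means that correlated at -0.036, -0.017 and 0.082 at E11.5 and -0.081, 0.042 and -0.435 at E16.5, so the numbers were not taken to pair samples. In single cells 217 of 222 values kept within their counting interval. Those that moved, as log2 ratios, were Rxra with thinned cells (0.352 over all cells, 0.594 in cardiomyocyte-like cells) and Crabp1 in cardiomyocyte-like cells (-0.496; 0.410 thinned, 0.197 with doublets kept), and Crabp1 in mesenchymal-like cells labelled +/+ was at 53.0 CPM thinned. Groups of 3 libraries, unknown bulk depth and 1 single-cell library per genotype limit these comparisons.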

Other observations

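Other genes of the pathway marked further cell classes at E11.5. Cyp26b1, which encodes an enzyme that breaks retinoic acid down and was singled out after its values were seen, had 161 of its 189 UMIs (85.2%) in endothelial-like cluster 7. It was at 56.4 CPM in that cluster in the library labelled +/+ and 39.1 CPM in the library labelled F/F, with 0 UMIs in epicardial-like cells of either library.

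The highest listed genes by class included Igf2 in epicardial-like (648 CPM), mesenchymal-like (756 CPM) and cardiomyocyte-like cells (435 CPM), and in clusters 9 (691 CPM) and 11 (940 CPM). Fabp5 led in endothelial and endocardial-like cells (1669 CPM) and was at 478 CPM in mesenchymal-like and 397 CPM in immune-like cells. Meis2 was at 149 CPM in cluster 9. Rbp4, the gene of the retinol carrier in blood, was at 4446 CPM in the 13 hepatocyte-like cells, and over all cells it had 1488 UMIs in the library labelled +/+ and 54 in that labelled F/F, in which no hepatocyte-like cluster member was found.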
